A study of Homo sapiens with 16 samples.

Results

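The 223 probes described here were chosen as higher after 12 h of the copper complex A0, not raised at its first times, and near control after 12 h of cisplatin. HT1080, an established human fibrosarcoma line, was kept in complete medium and either left as a control or exposed to 25 µM of 1 of the drugs, and its total RNA was read on 16 single-colour Illumina bead arrays. A0 is a thioxotriazole copper(II) complex, and RNA was taken at 1, 3, 6 and 12 h of exposure to it. Cells given cisplatin were taken at 3, 6 and 12 h. Each of these 7 groups had 2 arrays, as did the control, for which the labels give no time. All samples came from this 1 line. Nothing in the labels tells whether replicates were independent cultures, so a p-value here covers the variation between these samples alone, and that variation may be technical.

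The members were chosen on the authors' processed intensities, floored at 32 and put on a log2 scale. The difference from control, d, is the mean of a group's 2 arrays minus the mean of both control arrays. Of 24350 GI probes, 7211 had a detection score of at least 0.99 on both A0 12 h arrays, and 678 of those had d of at least 1 at A0 12 h. Requiring d below 0.5 at A0 1 h and 3 h left 325, and requiring d within 0.5 of control at cisplatin 12 h left 223. Of the 102 probes removed at that last step, 81 were above that limit with cisplatin and 21 below it. Control, A0 1 h, A0 3 h, A0 12 h and cisplatin 12 h therefore defined the set, and their values are given as a description with no test. A0 6 h, cisplatin 3 h and cisplatin 6 h were not used by the rule. With no time given for the controls, d cannot tell a drug from culture time or handling.

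Copper complexes can carry copper into cells, where the metal binds protein thiols and takes part in redox reactions. Misfolded protein in the endoplasmic reticulum sets off the unfolded protein response, in which membrane sensors switch on transcription factors that raise chaperones, degradation factors and, under lasting stress, genes tied to cell death. The study's title places A0 in this context, together with paraptosis, a form of death marked by swollen vacuoles and without the usual features of apoptosis. Cisplatin forms adducts on DNA and engages the DNA damage response. Transcripts that rise only hours after exposure can be secondary targets of such early regulators. Neither the files nor the reference table paired the GI numbers with genes, so no member could be assigned to any of these pathways, the fibrosarcoma identity could not be checked with marker genes, and no sequence is shown.

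By construction every member was higher at A0 12 h than in control. The median d was 1.21, a 2.31-fold difference, and the range ran from 1.00 to 4.36. Most rises were modest: 176 members had d below 1.5, 27 had d from 1.5 to below 2, and 20 had d of at least 2. Across all 9293 tested probes, 7.32% reached d of 1 at A0 12 h, a share from which nothing is read because the rule used this contrast. Both A0 12 h arrays lay above both control arrays for 221 of the 223 members. Replicate 2 was the higher of the A0 12 h arrays for 149 members, and for 94 members only 1 of these arrays reached 1 above the control mean. A0 12 h was the highest of the 8 groups for 221 members.

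The member medians on single arrays give the size of the late step that the rule required. Relative to the control mean they were 0.00 on both A0 1 h arrays, 0.09 and 0.06 on the A0 3 h arrays, and 0.42 and 0.60 on the A0 6 h arrays. At A0 12 h they were 1.15 and 1.31. The 6 cisplatin arrays had medians from 0.00 to 0.06, and the rule held the 12 h arrays among them near control. At A0 1 h, where the rule set no lower limit, 11 members stood at d of -0.5 or less, and at A0 3 h 1 member did.

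**Figure D1:**
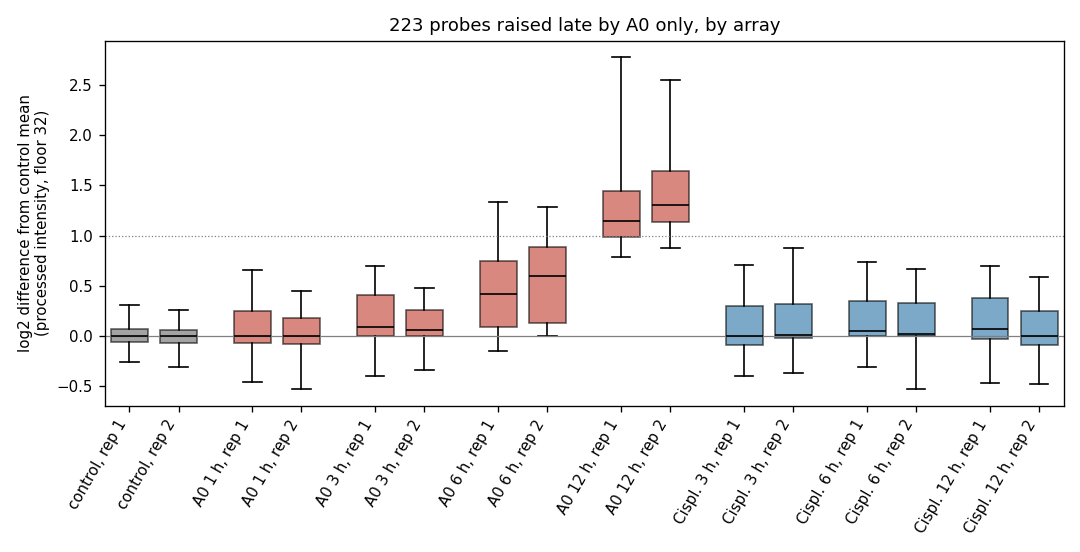
Log2 difference of the 223 members from the mean of both control arrays, 1 box per array (line, median; box, quartiles; whiskers, 5th to 95th percentile; processed intensity floored at 32; dotted line at 1). The A0 12 h medians are 1.15 and 1.31, the A0 6 h medians 0.42 and 0.60, and the cisplatin medians 0.00 to 0.06.

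The size of the rise depended on the scale. On background-corrected, quantile-normalised log2 signals, the scale used for the tests below, the median difference between A0 12 h and control was 1.01, with a range from 0.28 to 4.17. On that scale 113 members reached 1, against 4.35% of all tested probes, and 110 did not. The median of all tested probes at A0 12 h was 0.13 on the processed scale and -0.06 after quantile normalisation. In the authors' processed table the values of each array are a straight line of its signal. The slope of that line, the scaling factor, ran from 0.848 to 2.55, and its intercept is not given here. The 2 A0 12 h arrays had factors of 2.55 and 1.37. A0 3 h replicate 1 and cisplatin 3 h replicate 1 had factors of 2.22 and 2.10, with member medians of 0.09 and 0.00. The part of the scaling factor in the A0 12 h values was not tested.

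Many members were dim outside A0 12 h. A probe was called detected at a detection p of at most 0.01. Both control arrays detected 140 members, 1 control array detected 21 and neither detected 62. Between 123 and 178 members were detected on the single arrays other than A0 12 h. The members detected on both arrays numbered 128 at A0 1 h, 122 at A0 3 h and 148 at A0 6 h, against 126, 142 and 131 with cisplatin at 3, 6 and 12 h. The filter of the test asked for detection on both arrays of at least 1 group, and 59 members met it through A0 12 h alone. For the 62 members seen on neither control array the fold is only a bound, set against the lowest detected signal of each control array. The median bound was at least 1.81-fold, the range of the bounds was 1.55 to 11.2, and 22 of the 62 had a bound of 2-fold or more. Of the 20 members with d of at least 2, 14 were undetected on both control arrays.

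**Figure D2:**
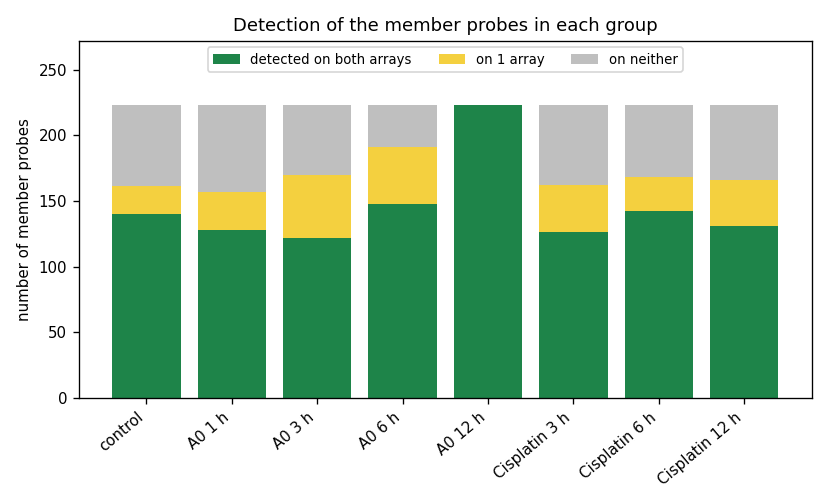
Number of member probes detected (detection p at most 0.01) on both arrays, on 1 array or on neither array of each group. Detection on both arrays holds for 140 members in control, 148 at A0 6 h and, by the rule, all 223 at A0 12 h.

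At 6 h of A0, a time that the rule did not use, most members were already part of the way up. The median d was 0.55, a 1.46-fold difference, and 197 of the 223 members stood above 0, against 57.9% of all tested probes and 63.0% of those detected on both A0 12 h arrays. Of the members, 125 had d of at least 0.5, against 18.2% of all tested probes (20.0% of the probes detected on both A0 12 h arrays). A d of at least 1 was reached by 18 members, against 3.72% of tested probes. These differences share the control arrays with the rule and are given without a test. The median share of the 12 h difference present at 6 h was 40.8%, with quartiles of 24.5% and 56.4%. The 12 h value and the 3 h value chose the members, and how this choice moves the share was not tested. For 192 members d rose from 3 to 6 to 12 h, and for 2 members d was higher at 6 h than at 12 h.

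Members differed in how steep the last step was. At 6 h, 98 members had d below 0.5, 107 from 0.5 to below 1, and 18 at least 1. The median d at A0 12 h in these classes was 1.15, 1.25 and 1.66. Among the 20 members that reached d of 2 at 12 h, 6 had stood below 0.5 at 6 h. For 22 members both A0 6 h arrays and both control arrays lay at or below the floor, so that a change between them could not be read. For 11 members every array other than A0 12 h lay at or below the floor. Members detected on both control arrays had a median d of 0.61 at 6 h, those detected on 1 control array 0.35 and those detected on neither 0.30. The part of the floor in these values was not tested.

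**Figure D3:**
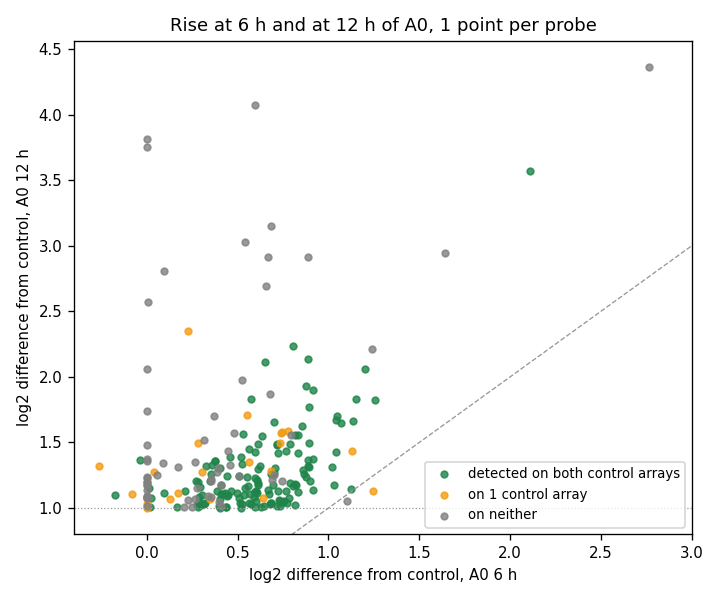
d at A0 6 h against d at A0 12 h (log2 difference of processed intensity, floor 32), 1 point per member, coloured by detection on the control arrays (dashed line, equal values; dotted line, the threshold of 1). Points lie above the dashed line for all but 2 members, and the points at 0 on the horizontal axis include the 22 whose A0 6 h and control arrays are all at the floor.

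Whether A0 and cisplatin already differed for these probes at 6 h was tested between A0 6 h and cisplatin 6 h, groups whose values did not enter the rule. All 16 arrays, those of the rule included, set the spread, the normalisation and the filter. The members leaned towards A0: the median difference of A0 6 h minus cisplatin 6 h was 0.32 on the normalised log2 scale, and 179 of 223 members (80.3%) stood above 0. Over all 9293 tested probes the median was 0.00 and 50.4% stood above 0. Over the 7211 probes detected on both A0 12 h arrays the median was 0.03 and 53.3% stood above 0. Both A0 6 h arrays lay above both cisplatin 6 h arrays for 99 members (44.4%, against 24.2% of all tested probes) and below both for 12 (5.38%, against 26.3%). A difference of at least 0.5 was held by 77 members (34.5%, against 13.7%), and 1 of -0.5 or less by 6 (2.69%, against 14.9%). These counts include the 59 members that passed the filter through A0 12 h alone. Among the other 164, with the same filter applied without A0 12 h, the median was 0.33 and 130 stood above 0 (79.3%, against 50.1% of the 9195 probes left).

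Single members seldom passed the test. In limma's moderated test, with Benjamini-Hochberg adjustment over all tested probes and a threshold of 0.05, 12 members (5.38%) were higher with A0, against 3.29% of all tested probes, and 1 member (0.448%) was lower, against 4.84%. The share called higher was thus not far from the background. At an unadjusted p under 0.05, 54 members were higher, against 10.0% of tested probes, and 4 were lower, against 12.4%. The 12 differences ran from 0.86 to 2.39 with a median of 1.16, and all 12 were free of overlap between the arrays of the drugs. Of the 12, 11 also had d of at least 0.5 at A0 6 h, and 2 had d of -0.5 or less at cisplatin 6 h. With the filter applied without A0 12 h, 12 of 164 members were higher (7.32%, against 3.35%) and 1 was lower (against 4.93%). Both cisplatin 6 h arrays missed 3 of the 12. Some of these were detected on only 1 A0 6 h array, so no bound on their fold is given.

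The count rested on few arrays. It was 1 when only the 4 arrays compared set the spread. Leaving out either cisplatin 6 h array lowered it, and leaving out either A0 6 h array did not. The A0 6 h replicates differed more than those of any other group, with an SD of 0.511 for the difference between arrays over all tested probes. Against the cisplatin 6 h mean, the members' median was 0.18 on A0 6 h replicate 1, with 141 members above 0, and 0.43 on replicate 2, with 180 above 0. No share of all tested probes is given for these single arrays, so the counts only describe how the replicates differed. Among the 134 members detected on all 4 arrays compared, and in a fit on such probes only, 109 stood above 0 (81.3%, against 52.0% of that background), 9 were higher (6.72%, against 2.96%) and 0 were lower (against 4.13%).

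**Figure D4:**
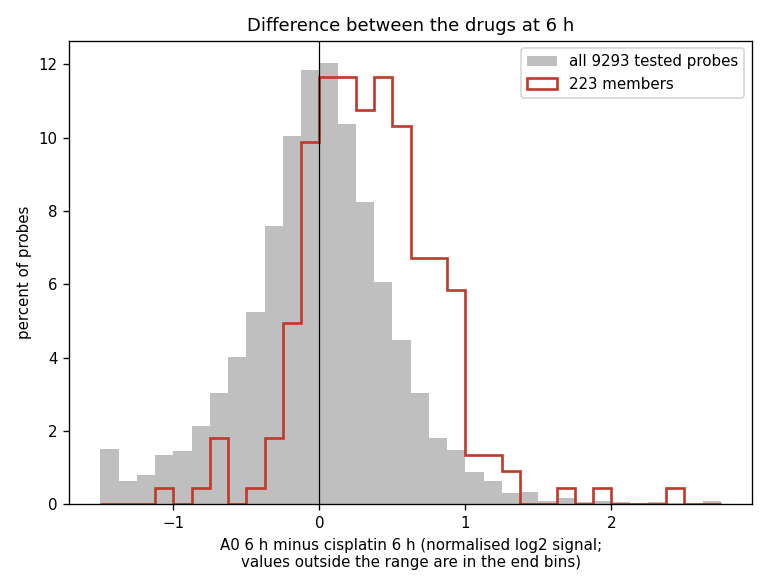
Distribution of the A0 6 h minus cisplatin 6 h difference (normalised log2 signal) for the 223 members (red line) and for all 9293 tested probes (grey), each as a percent of its set. The member median is 0.32 and the median of all tested probes 0.00.

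At 3 and 6 h of cisplatin, times that the rule did not use, the members' medians lay near control. The median d was 0.09 at 3 h and 0.06 at 6 h. On the cisplatin 3 h and 6 h arrays 63 to 71 members lay at or below the floor, against 73 and 74 on the control arrays. For a member at the floor on all arrays of both groups d is 0, and a change could not be read. At 3 h, 23 members had d of at least 0.5, against 15.0% of tested probes, and at 6 h 29 did, against 16.4%. A d of -0.5 or less was held by 4 members at each time, against 8.64% and 13.5% of tested probes. A probe at the floor on both control arrays cannot have a negative d, so nothing is read from these shares. The range of the members was -1.46 to 1.23 at 3 h and -1.11 to 0.93 at 6 h. In all, 44 members reached 0.5 at 1 or both of these times. Of these, 15 did so at 3 h only, 21 at 6 h only and 8 at both. No matching share of all tested probes is given for these counts, so nothing is read from them. A d of at least 1 was reached by 2 members, both at 3 h, against 2.79% of tested probes at 3 h and 3.66% at 6 h. These values share the control arrays with the rule and were not tested. Cisplatin 6 h against cisplatin 3 h compares groups whose values did not enter the rule, with the spread, normalisation and filter again set by all 16 arrays. The members' median difference was 0.06, against 0.02 for all tested probes, and 119 of 223 (53.4%) stood above 0, against 52.2%. By limma's test 0 members were called, with a lowest adjusted p of 0.107, against 0.0% of tested probes higher and 0.0968% lower. At an unadjusted p under 0.05, 10 members were higher at 6 h, against 4.71% of tested probes, and 8 were lower, against 4.98%.

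For comparison, 16 probes rose late under A0 and had d of at least 1 at cisplatin 12 h. Their median A0 6 h minus cisplatin 6 h difference was -0.40, against 0.32 for the 223 members. The 103 probes with d of at least 1 at both A0 1 h and A0 12 h had a median of 0.59. The rules of these sets involve different groups, and the differences between the sets were not tested.

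Of the members 4 are given probe by probe. GI_4506516-S had the largest rise. Its normalised log2 signal was 4.50 and 4.95 in control, 4.78 and 4.89 at A0 1 h, 4.91 and 5.27 at A0 3 h, 8.46 and 6.63 at A0 6 h, and 8.89 on both arrays of A0 12 h. With cisplatin the 3 h arrays read 4.75 and 5.44, the 6 h arrays 5.73 and 5.50, and the 12 h arrays 5.40 and 5.76. Both A0 6 h arrays and both A0 12 h arrays lay above every other array, and the A0 6 h arrays were wide apart. Neither control array detected the probe, so A0 12 h was at least 11.2-fold above control, a description without a test. At 6 h the log2 signal was 1.93 higher with A0 than with cisplatin (SE 0.43), a 3.81-fold difference with a limma adjusted p of 0.0146. Leaving out A0 6 h replicate 1 reduced the difference to 1.01 and ended the call (limma adjusted p = 0.0889), while leaving out replicate 2 raised it to 2.85 (limma adjusted p = 0.000894). Leaving out either cisplatin 6 h array also ended it (limma adjusted p = 0.0561 for replicate 1 and 0.118 for replicate 2), as did a spread taken from the 4 arrays alone (0.111).

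GI_25777646-I, a probe for 1 of several transcript variants, had the largest difference between the drugs at 6 h among members called without overlap. It was detected on all 16 arrays. Its log2 signal was 7.00 and 6.31 in control, 6.77 and 5.69 at A0 1 h, 7.65 and 6.28 at A0 3 h, 9.85 and 7.24 at A0 6 h, and 10.03 and 9.42 at A0 12 h. With cisplatin the 3 h arrays read 6.55 and 6.72, the 6 h arrays 6.14 and 6.17, and the 12 h arrays 6.17 and 6.43. Replicate 1 was the higher array at all 4 times of A0, and the A0 6 h arrays lay 2.61 apart on this scale. At 6 h A0 was 2.39 above cisplatin (SE 0.65), a 5.23-fold difference with a limma adjusted p of 0.038. Leaving out A0 6 h replicate 1 brought the difference down to 1.08 and ended the call (limma adjusted p = 0.306), while leaving out replicate 2 brought it up to 3.69 (limma adjusted p = 0.00238). Leaving out either cisplatin 6 h array ended it too (limma adjusted p = 0.139 for replicate 1 and 0.181 for replicate 2). It was also lost with no filter on detection (limma adjusted p = 0.108) and with a spread taken from the 4 arrays alone (0.137).

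The remaining pair had the lowest measured A0 6 h minus cisplatin 6 h differences. Neither was detected on an A0 6 h array, so their rank is not firm. GI_37552860-S was the 1 member called lower with A0. It read 5.08 and 5.35 in control, 4.80 and 4.81 at A0 6 h, 5.77 and 6.27 at A0 12 h, 5.77 and 5.97 at cisplatin 6 h, and 5.87 and 5.17 at cisplatin 12 h. A0 6 h was at -1.07 relative to cisplatin 6 h (SE 0.25, limma adjusted p = 0.019), with no overlap of the arrays. With the A0 6 h signal below detection, the difference allows only that cisplatin 6 h was at least 1.28-fold higher. The call was lost with 75th percentile centring (adjusted p = 0.179), with the processed values (adjusted p = 0.103), with no background correction (adjusted p = 0.0806) and with only the arrays compared (adjusted p = 0.0578). It was also lost without any 1 of the 4 arrays compared, with an adjusted p of 0.0779 and 0.0622 without A0 6 h replicate 1 and 2 and of 0.0584 and 0.15 without cisplatin 6 h replicate 1 and 2.

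GI_22027491-S read 5.48 and 4.91 in control, 4.91 and 4.52 at A0 6 h, 5.98 and 6.37 at A0 12 h, and 5.13 and 5.84 at cisplatin 6 h. At 6 h, 0 A0 arrays and 1 cisplatin array detected it, so no fold between the drugs can be given. The measured log2 values differed by -0.76 (SE 0.26, limma adjusted p = 0.0932). The difference was -1.12 without cisplatin 6 h replicate 1 and -0.41 without replicate 2, the cisplatin 6 h array that detected the probe. It was -0.96 and -0.57 without A0 6 h replicate 1 and 2. Both A0 12 h arrays lay above all others, and only 2 of the 14 other arrays detected the probe. It was read from few beads, 15 on each A0 12 h array and 17 and 9 on the A0 6 h arrays, against array medians of 41 to 42.

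**Figure D5:**
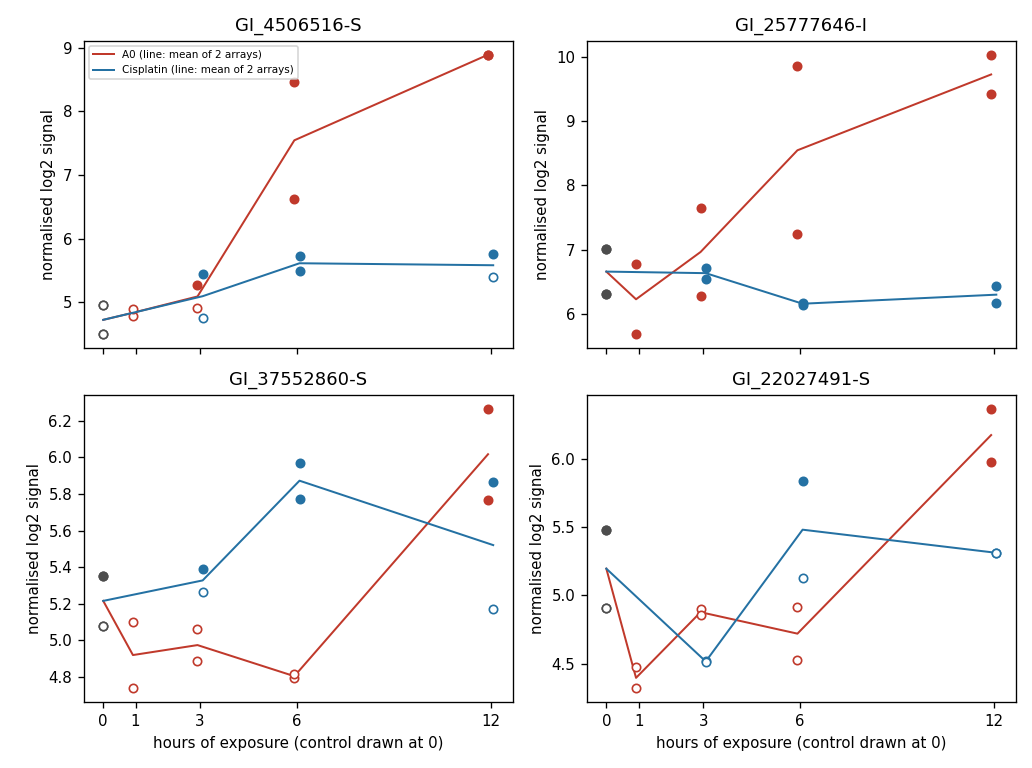
Normalised log2 signal of 4 members against hours of exposure, with A0 in red, cisplatin in blue and control in grey at 0. Each circle is 1 array (filled, detected; open, not detected) and lines join the means of 2 arrays. The A0 12 h means are 8.89, 9.72, 6.02 and 6.18 in the order of the panels.

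The threshold cut through a continuous distribution. The members nearest to it had d of 1.001, 1.002 and 1.004 at A0 12 h, and the probes that met every other criterion and lay nearest below it had 0.9928, 0.9908 and 0.9902. There were 63 members with d below 1.1 and 82 probes just outside with d from 0.9 to below 1. At cisplatin 12 h, 41 members lay at 0.4 or more from control in either direction, and 27 late probes lay just past the limit, from 0.5 to below 0.6.

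Probe types were shared out among the members much as among all tested probes. The name suffix marked 184 as probes for genes with a single transcript (82.5%, against 82.4% of tested probes), 14 for 1 of several variants (6.28%, against 5.88%) and 25 for all variants of a gene (11.2%, against 11.7%). There were 2 members with the same GI number, 1 for a variant and 1 for all variants, so they may report the same transcript.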

How the data were processed

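Each deposited array file gives, for every probe, a linear intensity averaged over beads, its spread over beads as an intensity, a count of beads and a detection score given as a fraction from 0 to 1, per the file headers. The submitters' processing notes name BeadStudio 1.5.1.3. The authors' deposited table of processed intensity values is a straight line of each array's signal. Its scale is linear. The sources used here give neither the normalisation behind it nor the slides.

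The membership rule ran on the processed table. Tests ran on neqc values (limma 3.58.1, R 4.3.3; offset 16, quantile normalisation, log2), in 1 model over 16 arrays and 8 groups with 8 residual and 5.7 prior degrees of freedom. Of 24350 probes, 9293 were tested, those with a detection p of 0.01 or less on both replicates in 1 group or more. Precision is limited by the number of arrays. Single arrays detected from 7626 to 9640 probes, with a median of 41 to 42 beads a probe.

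The members, lists, tests and alternatives were chosen with earlier results of these data known. The rule for named probes, where no names exist, took the largest d at A0 12 h, the largest called drug difference at 6 h without overlap, and the 2 lowest drug differences. The 21 gene lists, with 474 symbols, and the marker lists were not used, since 0 probes matched the reference table (GRCh38.p14). A filter without A0 12 h was added after seeing the data. The other alternatives covered normalisation, background, filter, variance model, weights, replicate block, membership, fold threshold and leaving out each array.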

Additional observations from a re-analysis of the deposited data

Results flagged for a closer look

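In limma's direct test of A0 6 h against cisplatin 6 h the drugs differed at 13 of the 223 members. There were 12 members higher with A0, against 3.29% of all tested probes, and 1 member lower, against 4.84%. The differences of single probes were 1.93 on the log2 scale for GI_4506516-S (adjusted p = 0.0146) and 2.39 for GI_25777646-I (adjusted p = 0.038). For GI_37552860-S the measured difference was -1.07 (adjusted p = 0.019), but neither A0 6 h array detected the probe, so cisplatin was at least 1.28-fold higher. The first and second of these calls were lost without A0 6 h replicate 1 or either cisplatin 6 h array and held without A0 6 h replicate 2, and the third was lost without any 1 of the 4 arrays.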

How the results depend on the processing

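The median difference of the members between the drugs at 6 h was above 0 in all 32 alternatives run, from 0.17 to 0.43. The share above 0 ran from 63.2% to 86.8%, and no share of all tested probes is given for each alternative. Many alternatives could not move either value, so their stability carries no weight. They changed only the spread, weights, replicate block or fold threshold, dropped the detection filter, or left out an array not compared. The 12 members called higher with A0 became 4 with no filter on detection, 1 with the spread of the 4 compared arrays alone, 20 with the replicate block and 19 with a floor of 64 in the membership rule. Leaving out each array in turn gave 2 to 15, and the filter without A0 12 h gave 12. GI_37552860-S was outside the sets counted with only probes detected on all 4 arrays, a floor of 64 and members from neqc values. In those sets 0 members were called lower with A0. The 1 member called lower with A0 became 0 with 75th percentile centring, the processed values, no background correction and only the arrays compared. It became 2 members with control 1 alone as the reference, and 0 to 1 when each array was left out. For cisplatin 6 h against 3 h the 0 members called higher became 1 with no background correction and 1 with a trended and robust variance. The cause of these shifts was not tested. The rule itself gave 193, 176, 136, 201 and 228 members with a floor of 16, a floor of 64, neqc values, control 1 alone and control 2 alone, of which 179, 139, 103, 156 and 165 were among the 223. The A0 12 h difference of GI_25777646-I was 3.07 on the normalised scale and 3.57 on the processed one.

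Same-numbered arrays share only a number in the labels. Their deviations correlated at 0.226 between A0 6 h and cisplatin 6 h and at 0.128 between cisplatin 3 h and 6 h. Over all 28 pairs of groups the range was -0.257 to 0.376, and 18 pairs exceeded 0.1. Replicate 1 detected fewer probes than replicate 2 in every group, for example 7966 against 8948 at A0 6 h. It also had the larger scaling factor in every drug group. What the replicate number stands for is not known, so the replicate block is not read as a paired design. Signal over background limits 62 members, undetected in both controls, to bounds.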
